A study of Mus musculus with 12 samples.

Results

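Bone morphogenetic protein (BMP) signalling was followed through 10 genes of the embryonic heart, chosen by symbol from the table of expression values: the ligands *Bmp2*, *Bmp4*, *Bmp5*, *Bmp6*, *Bmp7* and *Bmp10*, the receptors *Bmpr1a* and *Bmpr2*, and the inhibitory SMADs *Smad6* and *Smad7*. All 10 were among the 19424 genes with values for the comparisons, and all 10 passed the filter on low values, a mean RPKM of at least 0.5, in each of the 5 comparisons. RNA was sequenced from whole CD1 mouse hearts at embryonic day 11.5 (E11.5) and E12.5, with 3 libraries in each of 4 groups. The Mutant carried *Mesp1Cre*;*Hira*-/fl and the Cre control *Mesp1Cre*;*Hira*+/fl at both stages. *Hira* encodes a chaperone that deposits the histone variant H3.3. *Mesp1Cre* recombines the floxed allele in cardiogenic mesoderm, so other cells of the mutant heart kept that allele beside the constitutive null one, and controls lost 1 allele in recombined cells. The labels number the libraries of a group 1 to 3 and do not say whether they came from separate embryos or litters, so p-values measure the spread between libraries only.

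BMP ligands are secreted dimers that bring together a type I receptor, such as BMPR1A, and a type II receptor, such as BMPR2. The activated type I receptor phosphorylates SMAD1, SMAD5 or SMAD9, which enter the nucleus with SMAD4 and switch on targets such as the *Id* genes. SMAD6 and SMAD7 block the pathway inside the cell and are themselves induced by it. In the heart *Bmp2* and *Bmp4* are known from atrioventricular canal and outflow tract myocardium and cushion formation, and *Bmp10* from trabecular growth. Whole hearts were sequenced, so fewer cells of a type and less RNA per cell cannot be told apart.

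The promoter windows of 4 members are shown because *Bmp4* and *Bmp10* differed between stages in opposite directions, *Bmp6* had the smallest genotype p over both stages, and *Smad6* held a SMAD motif. The sequences are from RefSeq (GRCm38.p6), 250 bases before to 50 bases after the annotated start, written 5′ to 3′ on the strand of the gene. RefSeq entries matched 7 of the 10 members. Capitals mark the palindromic SMAD box GTCTAGAC and the GC-rich SMAD element GGCGNC, searched on both strands.
*Bmp4*, chr14:46390620-46390919, minus strand: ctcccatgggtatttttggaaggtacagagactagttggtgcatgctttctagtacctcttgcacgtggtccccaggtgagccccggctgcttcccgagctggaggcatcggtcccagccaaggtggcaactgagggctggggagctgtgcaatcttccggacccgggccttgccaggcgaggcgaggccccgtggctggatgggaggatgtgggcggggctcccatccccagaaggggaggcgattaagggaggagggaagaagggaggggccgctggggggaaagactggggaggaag
*Bmp10*, chr6:87428744-87429043, plus strand: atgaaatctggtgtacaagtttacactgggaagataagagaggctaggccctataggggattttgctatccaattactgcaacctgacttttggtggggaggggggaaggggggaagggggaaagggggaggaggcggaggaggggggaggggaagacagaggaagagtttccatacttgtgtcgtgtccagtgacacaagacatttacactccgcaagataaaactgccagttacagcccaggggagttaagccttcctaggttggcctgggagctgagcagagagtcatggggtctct
*Bmp6*, chr13:38345466-38345765, plus strand: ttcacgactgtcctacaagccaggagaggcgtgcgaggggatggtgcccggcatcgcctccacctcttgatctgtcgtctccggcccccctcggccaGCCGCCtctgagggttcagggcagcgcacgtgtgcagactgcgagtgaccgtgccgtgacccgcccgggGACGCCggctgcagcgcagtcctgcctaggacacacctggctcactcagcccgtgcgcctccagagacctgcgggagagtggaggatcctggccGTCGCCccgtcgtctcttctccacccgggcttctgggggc
*Smad6*, chr9:64022010-64022309, minus strand: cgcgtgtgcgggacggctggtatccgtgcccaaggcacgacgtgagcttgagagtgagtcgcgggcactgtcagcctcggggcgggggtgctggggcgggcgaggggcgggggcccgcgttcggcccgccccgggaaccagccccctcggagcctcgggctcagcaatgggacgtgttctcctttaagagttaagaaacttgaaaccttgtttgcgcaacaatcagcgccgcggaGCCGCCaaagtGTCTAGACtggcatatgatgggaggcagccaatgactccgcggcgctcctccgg

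The *Smad6* window, of the inhibitory SMAD most tied to BMP signals, held 1 copy of the SMAD box, a sequence present in 0.213% of the 32851 promoters of the same length. It also held 1 GC-rich element, which did not overlap the box. The *Bmp6* window held 3 GC-rich elements, *Bmpr1a* 4 and *Bmpr2* 2. With *Smad6* these were the member windows that held at least 1, as did 36.2% of all promoters. The *Bmp4*, *Bmp5* and *Bmp10* windows held neither motif. A GAGA repeat, searched as GAGAGAGA on both strands, was in 3.93% of all promoters and in no member window. The windows ran from 43.3% GC in *Bmp5* to 79.3% in *Bmpr1a*, against a median of 52.7% for all promoters. CpG frequency relative to expectation ran from 0.165 in *Bmp10* to 1.02 in *Bmpr1a*, around a median of 0.384 for all promoters. These matches are descriptions of the letters in these windows.

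Libraries held between 11994148 and 17483982 counts. Cardiomyocyte markers were abundant in every group, with a summed level of 15720 to 20410 CPM (counts as a share of the library total, scaled by the trimmed mean of M values, TMM). Libraries also differed in how well long transcripts were represented. An index of this, the mean log2 level of the genes with the longest transcripts minus that of the shortest, ran from −0.68 in E11.5 Mutant 3 to 0.44 in E12.5 control 1, with E11.5 controls 1 and 3 at −0.26 and −0.38. At E12.5 all 3 controls, at 0.13 to 0.44, stood above all 3 mutants, at 0.05 to 0.11. By Y-linked counts all 3 E11.5 controls and 1 E11.5 mutant were male, and 1 library of each E12.5 group. Total *Hira* counts did not separate the groups: 78.1 ± 8.89 CPM in E11.5 controls and 64.7 ± 8.43 in mutants, then 75.1 ± 13.1 and 73.7 ± 5.19 at E12.5 (SD, n = 3). Counts over the whole gene include exons outside the deleted part and cells outside the lineage, and so do not check the labels.

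Per kilobase of the gene length used, *Bmp7* was the highest of the 10 genes and *Bmp6* the lowest. The mean level over the 12 libraries was 55.8 RPKM (CPM divided by gene length in kilobases) for *Bmp7*, a broadly made ligand, and 40.2 for *Bmpr1a*, the main type I receptor. *Smad6* averaged 24.7, *Bmp4* 20.8, *Bmp10* 12.9, *Bmpr2* 8.93, *Smad7* 7.74, *Bmp5* 7.15, *Bmp2* 5.97 and *Bmp6* 3.88 RPKM. Neighbours in this order had overlapping library ranges, as with *Bmp7* at 41.8 to 67.5 and *Bmpr1a* at 30.5 to 45.7. The lengths behind these levels were those recovered from the table, and they fall well short of the longest annotated transcript for *Bmpr2*, 3507 against 12899 bases, and for *Bmp10*, 1317 against 4490. For *Bmp7* the length was 1968 against 3670, and for *Bmpr1a* 5332 against 5956. By total counts *Bmpr1a* stood above *Bmp7*, at 39855 against 20368, so the order of these genes rests on the lengths used.

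**Figure D1:**
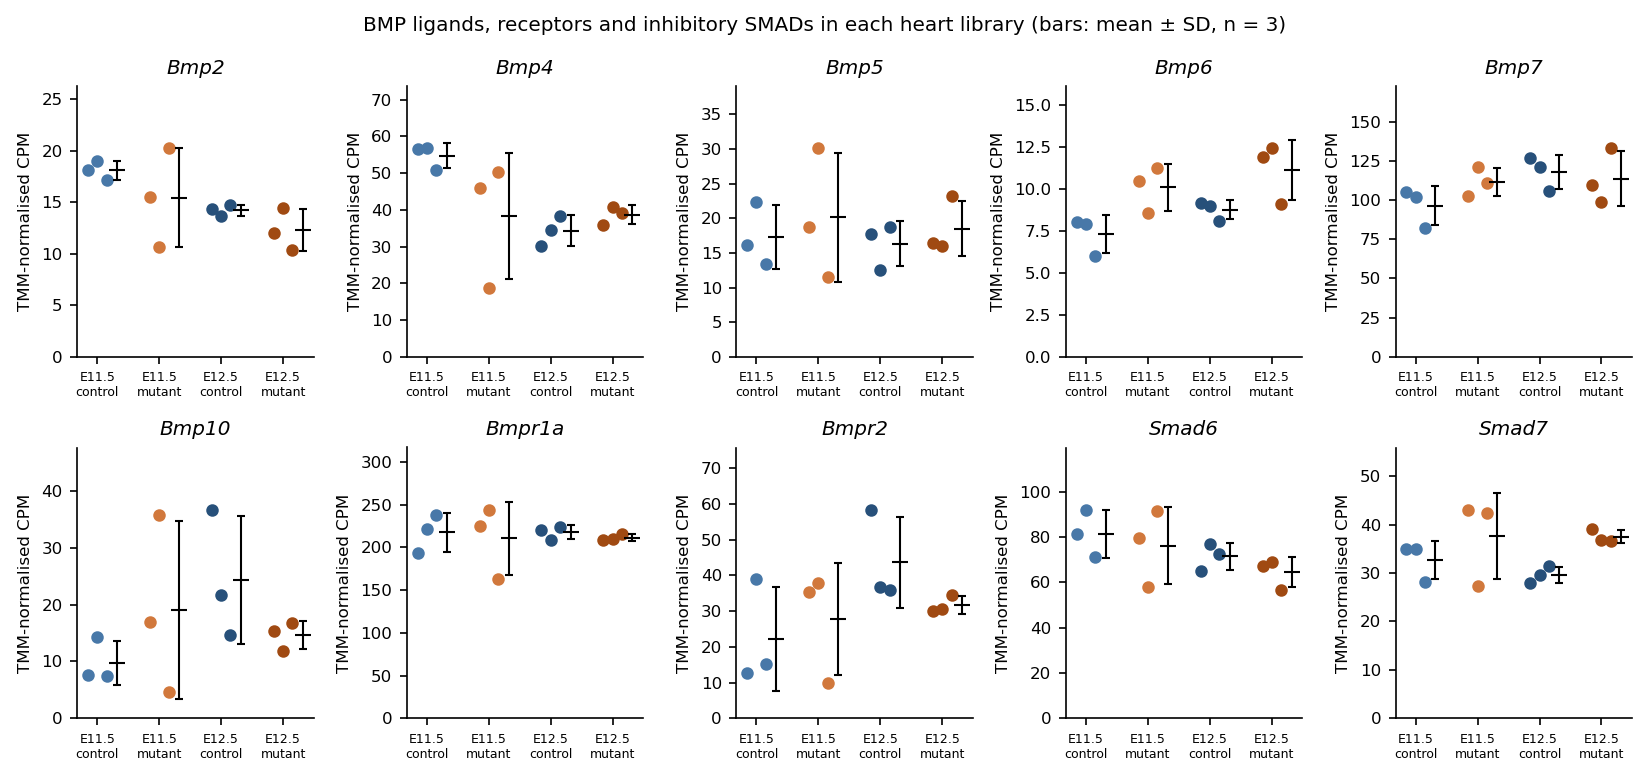
Level of each of the 10 genes in each library, in TMM-normalised CPM with the axis from 0, for the 4 groups (points are libraries 1 to 3 from left to right, bars the mean ± SD, n = 3). *Smad7* at E12.5 shows mutant points all above the controls, whereas *Bmp10* and *Bmpr2* spread widely within groups.

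*Bmp10* and *Bmpr2* were the least repeatable members. Their SD of log2 CPM within groups was 0.84 and 0.71, above that of 99.8% and 99.6% of genes, against a median of 0.16. *Bmp4* and *Bmp5* followed with 0.40 and 0.44, and the other 6 lay between 0.17 and 0.26.

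Between genotypes, the comparison asked which genes depend on HIRA in the cardiac lineage. By edgeR's quasi-likelihood test, a gene was called changed when its p, adjusted by Benjamini and Hochberg over every gene tested, was 0.05 or less and its fold change 1.5 or more. None of the 10 genes was changed at E11.5, where 0.115% of all genes tested were, and none at E12.5, where 3.03% were. The unadjusted p was under 0.05 for 0 of 10 at E11.5, against 10.3% of all genes, and for 4 of 10 at E12.5, against 21.3%. DESeq2 called 0 members at either stage. Over both stages together 0 of 10 were changed in edgeR, against 3.19% of all genes, 0 of 10 passed the adjusted p alone, against 6.82%, and 2 of 10 had an unadjusted p under 0.05, against 19.4%. The median log2 difference of the 10 was 0.20 at E11.5 and −0.03 at E12.5, against −0.0081 and −0.0017 over all genes tested.

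Among the ligands, *Bmp4* (chromosome 14, bases 46383520 to 46390669, mm10) was at 56.6, 56.7 and 50.8 CPM in the E11.5 controls and at 46.0, 18.8 and 50.4 in the mutants. All 3 mutants lay below all 3 controls, but mainly through Mutant 2. The log2 difference was −0.51 (SE 0.30, edgeR adjusted p = 0.657), and −0.18 without Mutant 2. At E12.5 the controls were at 30.1, 34.5 and 38.4 CPM and the mutants at 35.9, 40.9 and 39.2, which overlapped, with a log2 difference of 0.18 (SE 0.11, edgeR adjusted p = 0.350).

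*Bmp6* (chromosome 13, bases 38345716 to 38499728), a ligand of the same subgroup as BMP5 and BMP7, was the member nearest to a call over both stages. At E11.5 the controls were at 8.04, 7.95 and 6.04 CPM and the mutants at 10.5, 8.57 and 11.3, without overlap. At E12.5 the controls were at 9.17, 9.02 and 8.11 and the mutants at 11.9, 12.4 and 9.10, where 1 mutant fell among the controls. The mean log2 difference over both stages was 0.40 (SE 0.12, 95% interval 0.14 to 0.66), with an edgeR adjusted p of 0.0616 and a two-sided exact permutation p of 0.01 within stages, for which 0.005 is the smallest possible. The latter is not adjusted for the 10 genes. DESeq2 gave an adjusted p of 0.0220, and the adjusted p lay between 0.0220 and 0.184 over the alternatives. Summed endocardial and endothelial markers ran at 1254 to 1759 CPM in E11.5 mutants and 1036 to 1260 in controls, and at 1293 to 1608 and 1306 to 1353 at E12.5. Their part in this difference was not tested.

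*Bmp10* (chromosome 6, bases 87429002 to 87434512), the trabecular ligand, went opposite ways at the 2 stages without passing the test at either. The E11.5 controls were at 7.58, 14.3 and 7.37 CPM and the mutants at 16.9, 35.7 and 4.56. The mutants held both the highest and the lowest value of that stage. The E12.5 controls were at 36.6, 21.6 and 14.6 CPM and the mutants at 15.3, 11.9 and 16.8, also overlapping. The log2 difference was 0.98 (SE 0.59, edgeR adjusted p = 0.669) at E11.5 and −0.71 (SE 0.27, edgeR adjusted p = 0.155) at E12.5. The difference between the stages was −1.71 on the log2 scale, with an unadjusted p of 0.0388 from edgeR and an adjusted p of 0.954. No gene passed that interaction test in edgeR, where 4.5% had an unadjusted p under 0.05, while DESeq2 called 42 genes and no member. Without E12.5 control 3 the E12.5 difference was −0.97 with an edgeR adjusted p of 0.0242, and without control 1 it was −0.29 with 0.522. With the long-transcript index as a term it was 0.15.

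The other 3 ligands did not pass the test at either stage. *Bmp2*, which acts in cushion formation, was at 18.1 ± 0.901 CPM in E11.5 controls and 15.5 ± 4.80 in mutants, then at 14.2 ± 0.555 and 12.3 ± 2.05 (SD, n = 3). Its log2 difference was −0.23 at E11.5 (95% interval −0.74 to 0.28) and −0.20 at E12.5 (−0.50 to 0.11). *Bmp5* had 0.22 (−0.52 to 0.97) and 0.20 (−0.19 to 0.59), and *Bmp7* 0.21 (−0.10 to 0.52) and −0.04 (−0.28 to 0.20). A fold of 1.5, or 0.58 on the log2 scale, lay outside the interval for *Bmp7* at both stages but inside it for *Bmp5* at both.

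Of the receptors, *Bmpr1a* was the steadiest member at E12.5. Its controls were at 221, 208 and 224 CPM and its mutants at 209, 210 and 216, with a log2 difference of −0.03 (95% interval −0.18 to 0.12). At E11.5 the difference was −0.05 (−0.43 to 0.34). *Bmpr2* (chromosome 1, bases 59764279 to 59870549), the type II receptor, was at 58.2, 36.7 and 36.0 CPM in E12.5 controls and at 30.0, 30.5 and 34.6 in mutants. All 3 mutants were lower, with a log2 difference of −0.44 (SE 0.17, edgeR adjusted p = 0.153). In the same libraries all 3 controls also had the higher long-transcript index, and with the index as a term the difference was 0.01. At E11.5 its libraries split within genotype, with 12.6, 38.8 and 15.1 CPM in controls and 35.5, 37.9 and 9.81 in mutants. The 3 low values belonged to the 3 libraries lowest in long transcripts.

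**Figure D2:**
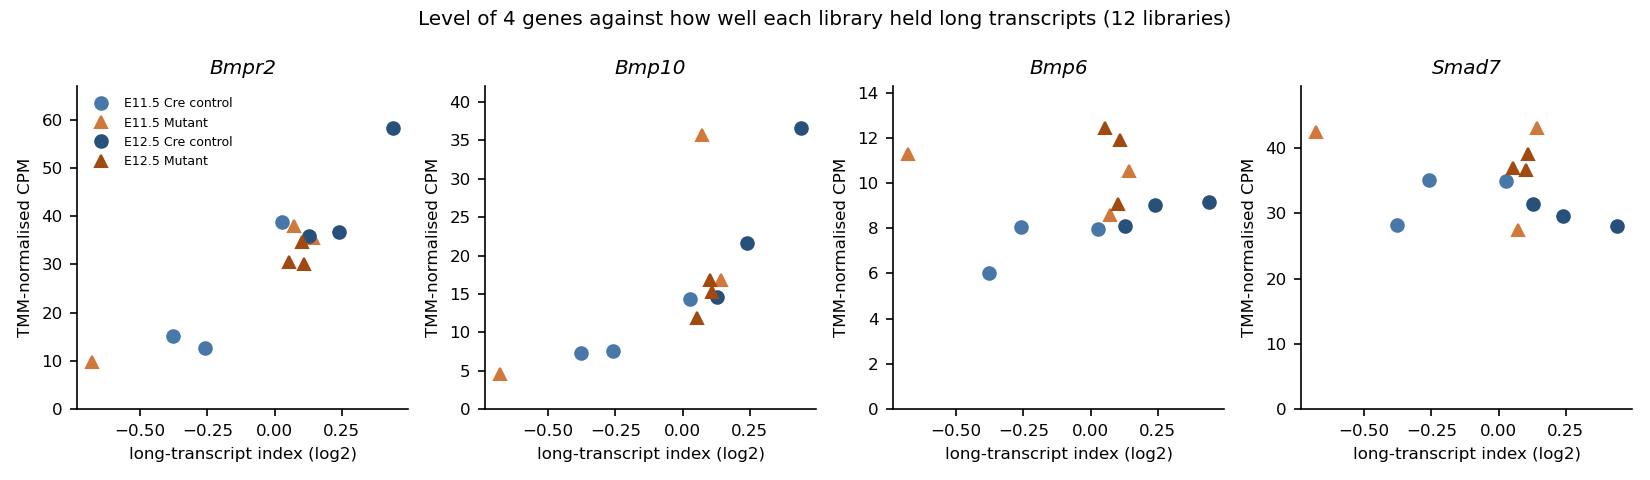
CPM of *Bmpr2*, *Bmp10*, *Bmp6* and *Smad7* against the long-transcript index of each of the 12 libraries (circles controls, triangles mutants, light E11.5, dark E12.5). *Bmpr2* and *Bmp10* follow the index, with Pearson r of log2 CPM of 0.95 and 0.89, while *Bmp6* and *Smad7* have 0.13 and −0.32.

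Across the 12 libraries, which share this length axis, log2 CPM of *Bmpr2* had a Pearson r of 0.95 with the index and that of *Bmp10* 0.89, and the other 8 genes lay between −0.60 and 0.57. *Bmp10* and *Bmpr2* had an r of 0.91 with each other. The genes most like *Bmpr2* were *Mtr*, *Erbb4* and *Ppp6r3* (r of 0.99 each), with longest transcripts of 5112 to 12037 bases. The genes most like *Bmp10* were *Atf6*, *Tmem245* and *Slc6a6* (0.96 to 0.97), with 6186 to 15981 bases. The longest transcript of *Bmp10* itself, 4490 bases, was below the 5521 from which the index counted a gene as long. *Bmpr1a*, with 5956 bases, had an r of 0.57 with the index. The part of transcript length in these correlations was not tested. By the same measure *Bmp2* was most like *Rspo3*, a secreted WNT modulator of the atrioventricular canal and outflow tract list, at 0.91 and like *Smad6* at 0.90. *Smad6* in turn was most like *Snai1*, at 0.91, and *Bmp6* most like *Plcd1*, at 0.97. All are descriptions over 12 libraries that also share stage and genotype.

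Of the inhibitory SMADs, *Smad7* was the only one of the 10 members to pass the adjusted p in a genotype comparison with edgeR, without reaching the fold threshold. The E12.5 controls were at 28.0, 29.5 and 31.4 CPM and the mutants at 39.1, 36.9 and 36.6. The groups did not overlap, at 29.7 ± 1.69 against 37.5 ± 1.36 CPM (SD, n = 3). The level was 1.28-fold higher in mutants, a log2 difference of 0.35 (SE 0.087, 95% interval 0.16 to 0.54, edgeR adjusted p = 0.0423). By adjusted p alone this is 1 of 10 members, against 5.12% of all genes. It did not pass with any 1 of the 6 libraries left out, with adjusted p from 0.0505 to 0.153, with limma at either pseudocount (0.0656 and 0.0649), with the replicate number as a block (0.0625), with all 12 libraries in one fit (0.391) or with the long-transcript index as a term, where the difference was 0.27 and the adjusted p 0.410. It passed the adjusted p in 6 of the 17 alternatives, among them DESeq2, at an adjusted p of 0.0364. In edgeR they included no filter (0.041), a mean RPKM of at least 5 (0.044) and median-ratio scaling (0.044). At E11.5 the controls were at 35.0, 35.0 and 28.2 CPM and the mutants at 43.0, 27.4 and 42.4, which overlapped, with a log2 difference of 0.20 (SE 0.19, edgeR adjusted p = 0.841). In the E12.5 mutants the summed erythroid markers were also lower, at 1909 to 2388 CPM against 3550 to 5835, and macrophage markers at 44.5 to 66.5 against 89.6 to 118.9. Of the 7 erythroid markers tested 5 fell, and of the 6 macrophage markers 4. Summed neural crest and neuronal markers were higher in mutants, at 16.7 to 25.0 CPM against 10.3 to 11.6, and of the 3 tested *Prph* (log2 2.93, edgeR adjusted p = 0.00245) and *Tubb3* (1.16, adjusted p = 0.00689) rose. Summed atrioventricular canal markers were also lower in these mutants, at 62.6 to 75.7 CPM against 80.2 to 93.1. Outflow tract markers were at 327 to 346 against 356 to 422, and cushion mesenchyme markers at 1037 to 1160 against 1172 to 1742. In the first 2 of these lists all 4 markers tested were below 0 on the log2 scale, without a call. Of the 7 cushion markers 4 were below 0, 1 with a call. The part of these cells in the *Smad7* difference was not tested.

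*Smad6* had a log2 difference of −0.10 (95% interval −0.51 to 0.31) at E11.5 and −0.14 (−0.35 to 0.08) at E12.5. Its mean at E11.5 was 81.3 ± 10.5 CPM for controls against 76.2 ± 17.0 for mutants, and a day later 71.4 ± 6.09 against 64.4 ± 6.67 (SD, n = 3). Groups that did not overlap were found for 2 of 10 members at E11.5, against 16.3% of all genes, and for 2 of 10 at E12.5, against 26.4%.

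**Figure D3:**
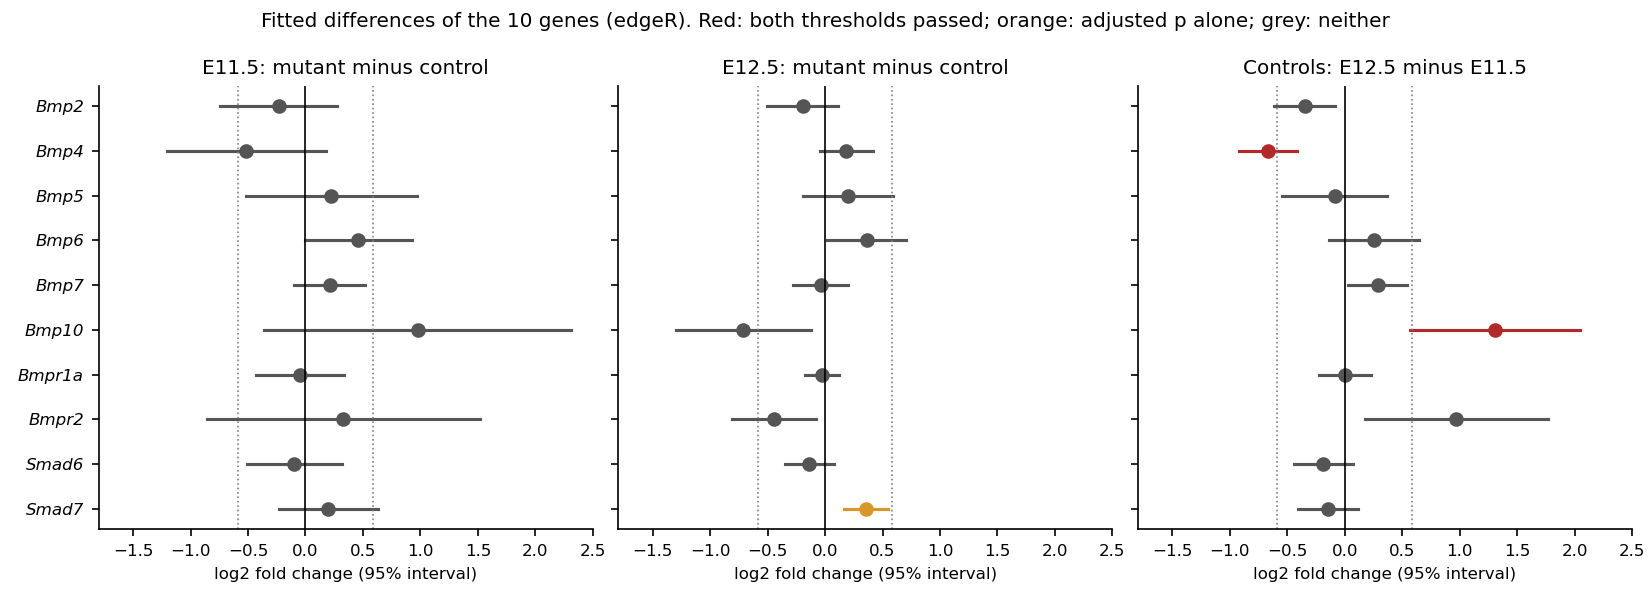
Log2 fold change of each of the 10 genes with its 95% interval from edgeR, for mutant against control at each stage and for E12.5 against E11.5 controls. Dotted lines mark a fold of 1.5. *Smad7* at E12.5 passed the adjusted p alone, and *Bmp4* and *Bmp10* passed both thresholds between the control stages, at −0.67 and 1.31.

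Between E11.5 and E12.5 in control hearts, *Bmp4* fell and *Bmp10* rose. *Bmp4* went from 54.7 ± 3.38 to 34.4 ± 4.14 CPM (SD, n = 3), all 3 later libraries lower, with a log2 difference of −0.67 (SE 0.11, edgeR adjusted p = 0.0134). *Bmp10* went from 9.74 ± 3.93 to 24.3 ± 11.3 CPM, all 3 later libraries higher, with a log2 difference of 1.31 (SE 0.33, edgeR adjusted p = 0.0364). These were 2 of 10 members, against 5.31% of all genes, and also the 2 of 10 that passed the adjusted p alone, against 11.3%. An unadjusted p under 0.05 was found for 5 of 10, against 32.7%. *Bmpr2* had a log2 difference of 0.97 (SE 0.36, edgeR adjusted p = 0.0948), *Bmp2* −0.35 (adjusted p = 0.0794) and *Bmp7* 0.29 (adjusted p = 0.115). Groups did not overlap for 5 of 10, against 37.4% of all genes. The later controls had the higher long-transcript index in all 3 libraries, and with it as a term *Bmp10* was at −0.20 and *Bmp4* at −0.58, both without a call. Sex differed between these groups too, all 3 earlier controls and 1 later one being male. With a sex term, which then rests on that 1 later library, the values were 0.58 and −0.50 with no call. Outflow tract markers fell over the same interval, 3 of 4 tested, and epicardial markers, 4 of 8, with 1 higher, and the part of these cells in the *Bmp4* difference was not tested.

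*Bmp4* still passed without both E11.5 controls that were low in long transcripts (−0.73, edgeR adjusted p = 0.0487), whereas *Bmp10* did not (0.76, adjusted p = 0.375). The *Bmp4* call was also lost without E12.5 control 1 or 2, at adjusted p of 0.0687 and 0.0666. The *Bmp10* call was lost without E11.5 control 1 or 3 or E12.5 control 1 or 2, with adjusted p from 0.0987 to 0.158.

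Of 61 other BMP pathway genes in the comparisons, 46 were tested at E12.5. There 1 was higher and 2 were lower, 3 of 46 against 3.03% of all genes. *Bmpr1b*, a type I receptor, was at 4.42, 4.63 and 4.43 CPM in E12.5 controls and at 2.28, 2.45 and 1.24 in mutants. That is a log2 difference of −1.15 (SE 0.27, edgeR adjusted p = 0.0345), and over both stages of −1.40 (adjusted p = 0.0138). The gene was near the floor, with means of 0.39 RPKM in E11.5 mutants and 0.37 in E12.5 mutants. The filter asked for a mean of 0.5 over all libraries of a fit. *Smad9*, a receptor-regulated SMAD, was at 11.6, 12.5 and 8.05 CPM in controls and 7.16, 6.13 and 4.71 in mutants. Its log2 difference was −0.82 (SE 0.21, edgeR adjusted p = 0.0459), and −0.74 over both stages (adjusted p = 0.00944). Both genes had all mutants below all controls at each stage. Groups apart in the same direction at both stages were found for 6.59% of all genes tested. *Nbl1*, a secreted BMP antagonist, was at 6.79, 9.25 and 7.44 CPM in controls and 11.2, 11.7 and 14.7 in mutants, a log2 difference of 0.69 (SE 0.17, edgeR adjusted p = 0.0385). Each of the 3 calls at E12.5 was lost on leaving out any of 5 of the 6 libraries, with all 12 libraries in one fit (edgeR adjusted p of 0.258, 0.0879 and 0.168 in the order above) and with the long-transcript index as a term (0.211, 0.484 and 0.378). *Bmpr1b* and *Smad9* were also lost with limma at either pseudocount, and *Smad9* with a sex term (0.0541). Over both stages the *Bmpr1b* call held under all 22 alternatives in which it was tested. The *Smad9* adjusted p over both stages stayed at or under 0.05 in all 22, with the fold threshold missed in 1. No pathway gene was changed at E11.5, where 47 were tested and *Bmpr1b* had −1.62 (edgeR adjusted p = 0.272).

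The most abundant genes of these lists were *Fstl1*, a secreted follistatin-like protein, at a mean of 248 RPKM, the target genes *Id2* at 140.1 and *Id3* at 114, and the co-receptor *Eng* at 68.9. Of the common and receptor-regulated SMADs, *Smad4* averaged 29.8, *Smad5* 15.9 and *Smad1* 8.07 RPKM. None of these 7 was changed between genotypes.

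By adjusted p alone at E12.5, *Bambi*, a decoy receptor without a kinase, was 1.49-fold higher (log2 0.57, SE 0.081, edgeR adjusted p = 0.00435), at 161 to 182 CPM in mutants and 107 to 120 in controls. *Twsg1*, a secreted modulator, was lower by this measure (log2 −0.29, adjusted p = 0.0376). Of the 12 BMP target genes tested, none passed the adjusted p at E11.5 or E12.5, where 0.115% and 5.12% of all genes did. At E11.5 their median log2 difference was −0.31, with 10 of 12 below 0 and 5 of 12 at an unadjusted p under 0.05, against 10.3% of all genes. At E12.5 the median was −0.17, with 9 of 12 below 0 and 2 of 12 at that p, against 21.3%. Over both stages it was −0.25, with 10 of 12 below 0 and 5 of 12, against 19.4%. These counts by unadjusted p cover both directions. Single log2 differences ran from −1.32 to 0.45 at E11.5, from −0.52 to 0.36 at E12.5 and from −0.93 to 0.40 over both stages. The medians over all genes tested were −0.0081, −0.0017 and −0.013 in that order. Over both stages *Id2* passed the adjusted p alone (−0.34, edgeR adjusted p = 0.0215). Summed cushion mesenchyme markers at E11.5 were at 1083 to 1411 CPM in mutants against 1448 to 1657 in controls. Epicardial markers were at 362 to 512 against 560 to 864, while atrioventricular canal and outflow tract markers overlapped. At E12.5 the last 2 lists and the cushion list were lower in mutants, as given above. The part of these cells in the target gene values was not tested. Between control stages, in 2 examples chosen after their values were seen, *Id1*, a direct BMP target, fell by 0.76 on the log2 scale (edgeR adjusted p = 0.00894), from 51.9 to 63.2 CPM down to 31.4 to 36.2, and *Acvrl1*, the endothelial type I receptor, rose by 0.89 (edgeR adjusted p = 0.0283). There 1 of 47 pathway genes tested was called higher and 1 lower, against 5.31% of all genes called in either direction. Sex and the long-transcript index also differed between these control groups, and neither term is in these 2 values.

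**Figure D4:**
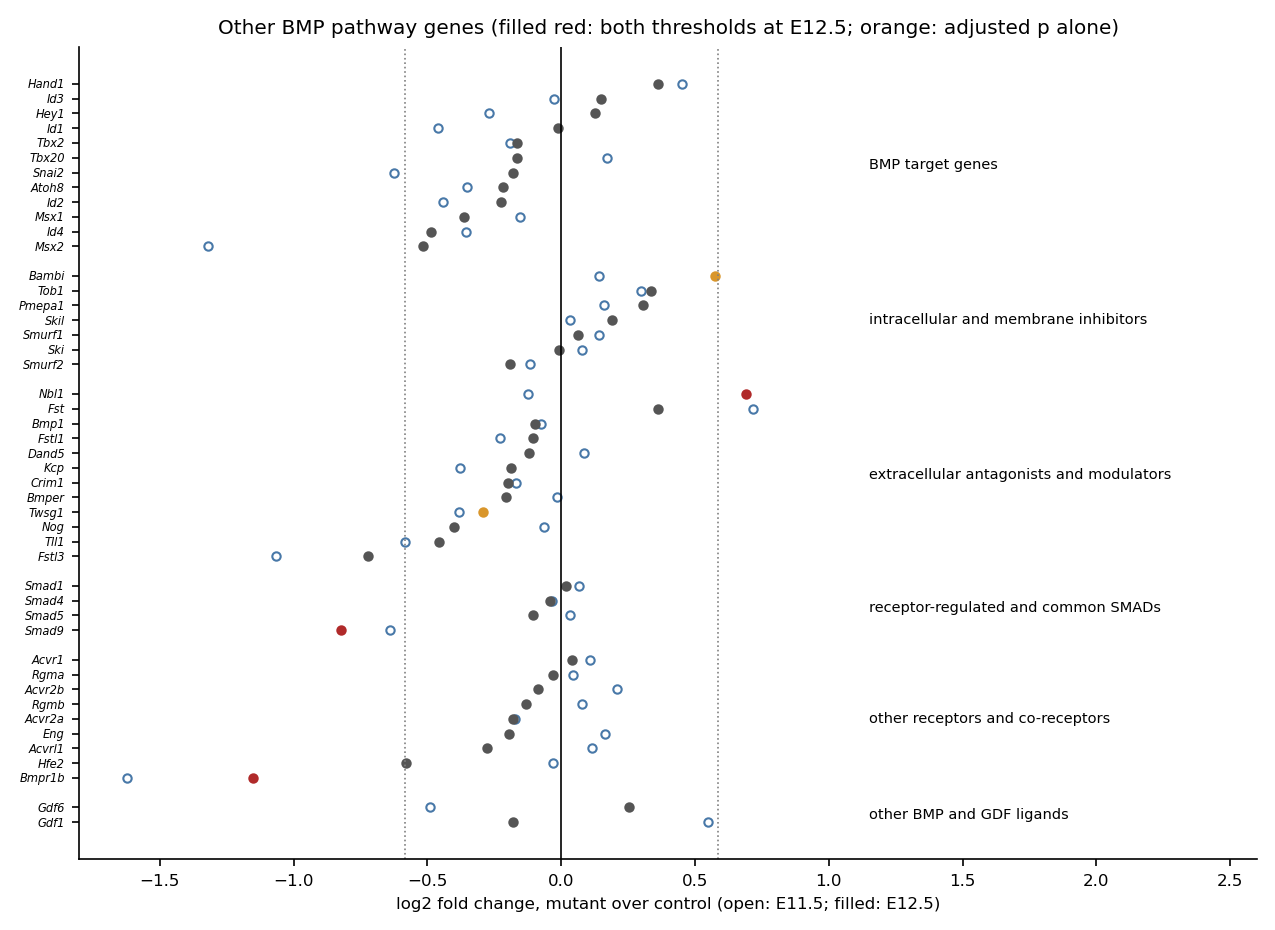
Log2 fold change, mutant over control, of the other BMP pathway genes tested at both stages (open circles E11.5, filled circles E12.5), grouped by role. *Bmpr1b* and *Smad9* lie left of the dotted line of a 1.5-fold decrease at both stages, and *Nbl1* right of the line of increase at E12.5. *Fstl3* also lies left of the line at both stages, without a call at either. *Hfe2* is the symbol in the table for hemojuvelin.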

How the data were processed

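RNA was sequenced from 12 heart libraries, 3 in each of 4 groups. The authors aligned paired-end reads with Bowtie2 to mm10 and processed them with DESeq, per the labels. The sequencer named in the study methods (a NextSeq) differs from that in the design text (a GAIIx). The deposited table holds a score per gene and library, and the deposited comparisons hold group mean expected counts beside fold changes and p-values of the authors, which were not used. Each value was found to be a count multiplied by a gene length and a library factor, so counts could be recovered for 17827 genes, all whole to within 4.37e-10. edgeR 4.0.16 in R 4.3.3 was used with TMM scaling and its quasi-likelihood test on genes with mean RPKM of at least 0.5. Calls needed an adjusted p at or under 0.05 and a 1.5-fold change. The study methods also name a Mann Whitney test, which with 3 against 3 cannot go below 0.1.

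Alternatives covered filters, scaling, DESeq2 1.42.0, limma 3.58.1, blocks, covariates and left-out libraries. An exact two-sided permutation test was run on single genes. Named genes were all 10 members, pathway genes changed in a genotype comparison or highest in their list, and the 3 genes most like each member. *Id1*, *Acvrl1* and *Fstl3* were added after their values were seen. The members and lists were chosen with earlier results of these data known. The scripts were tested on simulated data. The counting and its use of strand are not given in the sources used here. Intervals reflect the spread between libraries, and the level of a member rests on 53 to 4009 counts per library.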

Additional observations from a re-analysis of the deposited data

How the results depend on the processing

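Counts of changed members at E11.5, over both stages and for the difference between stages were 0 under every alternative. At E12.5 the count was 1 with no fold threshold (*Smad7*), and with single libraries left out it ran from 0 to 1. In controls between stages the count was 2, but 0 with a sex term, with all 12 libraries in one fit and with the long-transcript index as a term, 1 without the E11.5 libraries lowest in long transcripts, and 0 to 3 with single libraries left out. It was 3 with no filter and with the replicate block, where *Bmpr2* was added. The index term and the removal of the libraries lowest in long transcripts were chosen after seeing the data. Over all genes, 14 were changed at E11.5, but 248 with DESeq2, 73 with no filter, 6 with a mean RPKM of at least 5, 27 with limma at a pseudocount of 0.5, 96 with the replicate block, 39 with the sex term, 229 with all 12 libraries, 198 with the index term, 0 without the libraries lowest in long transcripts and 0 to 15 with single libraries left out. At E12.5 there were 371, but 628 with no fold threshold, 161 with a mean RPKM of at least 5, 127 with all 12 libraries, 81 with the index term and 186 to 383 with single libraries left out. Over both stages there were 391, but 837 with no fold threshold and 119 with a mean RPKM of at least 5. In controls there were 650, but 1390 with no fold threshold, 395 with a mean RPKM of at least 5, 345 with all 12 libraries, 19 with the sex term or the index term, 165 without the libraries lowest in long transcripts and 45 to 1407 with single libraries left out. *Bmp6* did not reach a mean RPKM of 5 and has no value under that filter. For each gene the group mean was subtracted from log2 CPM, and these deviations were correlated between control and mutant libraries. With 3 libraries in a group the deviations sum to 0, so the correlations are not independent of each other. Same-numbered libraries correlated at −0.03, 0.43 and 0.29 at E11.5, against −0.49 to 0.23 for different numbers. At E12.5 they correlated at 0.02, 0.06 and 0.02, against −0.07 to 0.04. These values do not settle whether equal numbers mark pairs, and the labels do not say. The main tests therefore left the numbers out, with the replicate block as an alternative. The block moved no genotype count of members changed by both thresholds. By adjusted p alone the block took the count at E12.5 from 1 to 0, *Smad7* then having 0.0625.

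Of 1270 values of single genes under alternatives, 1136 kept direction and side of the threshold and 88 changed sign; the cause was not tested. At E11.5 all 3 controls and 1 mutant were male, so with a sex term the genotype difference rests on Mutant 3, the library lowest in long transcripts. That term gave *Bmp2* 0.16, *Bmp5* −0.59, *Bmp10* −1.10, *Bmpr2* −1.18, *Smad6* 0.17 and *Nbl1* 0.19. Without the libraries lowest in long transcripts, *Bmpr1a* was 0.0916, *Bmpr2* −0.0701 and *Nbl1* 0.16. With single libraries left out, *Smad6* ran from −0.25 to 0.0695, *Bmpr1a* from −0.17 to 0.11 and *Bmp5* from −0.19 to 0.50. At E12.5 the index term gave *Bmp4* −0.0211, *Bmp7* 0.13, *Bmp10* 0.15 and *Bmpr2* 0.00551, and *Bmp7* ran from −0.17 to 0.0538 with single libraries left out. Over both stages *Bmp10* was −0.0168 and −0.0204 with limma at pseudocounts of 0.5 and 0.1, −0.00861 with the replicate block, −0.30 with the sex term and −0.26 without the libraries lowest in long transcripts, where *Bmpr1a* was 0.00378, and *Bmpr2* was 0.0685 with the index term. There, with single libraries left out, *Bmp10* ran from −0.35 to 0.39, *Bmpr2* from −0.24 to 0.14, *Bmp4* from −0.25 to 0.0124 and *Bmpr1a* from −0.0963 to 0.0353. For the difference between stages, *Bmp5* was 0.0301 and 0.0362 with limma, 0.0207 with the replicate block, 0.17 with the sex term, 0.29 with the index term and 0.0593 without the libraries lowest in long transcripts. *Bmp2* was −0.11 with the sex term and −0.0727 with the index term. Without those low libraries *Bmp6* was 0.0821, *Bmpr1a* −0.12, *Smad6* 0.27 and *Bmpr1b* −0.0821. With single libraries left out, *Bmp5* ran from −0.31 to 0.37, *Bmp2* from −0.19 to 0.26, *Bmpr1a* from −0.15 to 0.13, *Bmp6* from −0.22 to 0.0213, *Smad6* from −0.22 to 0.0958 and *Smad7* from −0.0442 to 0.27. In controls *Bmpr1a* was 0.00452 and 0.00461 with limma, 0.00438 with the replicate block, 0.0445 with the sex term and 0.0382 with the index term. *Bmp5* was 0.12 with the sex term. The index term gave *Bmp6* −0.0403, *Bmp7* −0.00382, *Bmp10* −0.20, *Bmpr2* −0.44 and *Nbl1* 0.53, and without the low libraries *Nbl1* was 0.34. With single libraries left out, *Bmp5* ran from −0.24 to 0.14 and *Bmpr1a* from −0.0799 to 0.0681.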
